A study of Rattus norvegicus with 9 samples.

Results

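The RNA-seq data of cultured neural stem cells (NSCs) held 46 genes of the autophagy machinery, chosen by name for their established role in starting autophagy, forming the autophagosome, recognising cargo or fusing with the lysosome. All 46 were found among the 23953 genes of the count table and all passed the filter on low counts in each comparison. The NSCs, described as rat spinal cord cells from newborn animals, were kept in differentiation medium in all 3 groups. The Con group received the medium alone. The Exo group received exosomes, small vesicles shed by cells, of bone marrow mesenchymal stem cells (BMSCs), which per the study's methods carried an empty lentiviral vector. The pLV-Exo-Wnt5a group received exosomes of BMSCs made to overexpress Wnt5a with the lentivirus. Each group had 3 libraries, 9 in all, and the labels give them a common batch date. The methods describe replicate wells for the cell assays, but neither they nor the labels say whether the sequenced libraries came from separate cultures or animals, so p-values may measure technical spread only.

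Autophagy encloses cytoplasm in a double membrane and delivers it to the lysosome for breakdown. When mTORC1 is inactive, the ULK1 kinase complex starts the process, a class III PI3-kinase marks the membrane, ATG9 vesicles and ATG2 supply lipid, and a ubiquitin-like conjugation system attaches LC3 and GABARAP proteins, which bind cargo receptors. In neural tissue it clears damaged mitochondria and protein aggregates, and neural stem cells depend on it for their maintenance. Much of its control acts on proteins and flux, which transcript counts do not measure.

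Total counts ranged from 32765138 to 40427647 per library, so that 3 counts, the most that a gene with no count could hide, amounted to 0.0742 to 0.0916 CPM (the count scaled to a fixed library size), counting error only. CPM values of a gene were scaled by TMM, a normalization for library composition, and compare libraries for that gene but not genes of different length. Con replicate 1 stood apart from the rest, with a median log2(CPM + 1) of 4.06 over the filtered genes, against 4.25 to 4.36 in the other 8 libraries. The defining markers of neurons, astrocytes, neural stem cells and the oligodendrocyte lineage were all above 1 CPM in every group. Of the 12 Hox genes chosen as markers of spinal cord origin, only 4 were in the count table, and their summed level was at most 0.0517 CPM in any library. The rest of the 12 were absent from it and could not be read, and Hox genes outside the 12 were not used here. All 8 forebrain markers were above 1 CPM and summed to between 649 and 807 CPM. The labelled spinal cord origin was therefore not borne out by the 4 positional markers that could be read. The table carries mouse symbols, gene numbers and pathway identifiers, whereas the labels give rat as the organism.

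No autophagy gene changed past the false discovery threshold in any comparison. With edgeR's quasi-likelihood test and Benjamini-Hochberg adjustment over all genes (Q), 0 of 46 had Q under 0.05 between the Exo and Con groups, where 0.00664% of 15070 genes did. The count was also 0 for pLV-Exo-Wnt5a against Exo (0.436% of 15132 genes) and for pLV-Exo-Wnt5a against Con (0.0862% of 15089 genes). DESeq2 on the same libraries also called 0 members in each comparison. The smallest Q of a member in edgeR was 0.265, for Atg2a in the Exo against Con comparison.

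At an unadjusted p under 0.05, 6 of the 46 genes (13%) differed between Exo and Con, against 14.9% of all genes tested. Bnip3, Atg12 and Atg5 were the higher ones (3 of 46, background 8.92%), and Atg2a, Tfe3 and Gabarap were the lower ones (3 of 46, background 6.01%). Between pLV-Exo-Wnt5a and Exo, 2 genes passed this level, Ambra1 higher and Bnip3 lower, against a background of 12% (5.07% higher, 6.91% lower). Between pLV-Exo-Wnt5a and Con, only Gabarap passed it, lower, against a background of 8.35% (4.2% higher, 4.15% lower). DESeq2 gave 8, 1 and 1 members in the same order, against 14.3%, 12.4% and 8.18% of all genes.

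The libraries of the Exo and Con groups did not overlap for 15 members (32.6%, background 23.3%), 6 of them higher and 9 lower in Exo. The corresponding count was 6 members between pLV-Exo-Wnt5a and Exo (background 16.4%) and 7 members between pLV-Exo-Wnt5a and Con (background 17.1%). The comparisons share libraries: each group enters 2 of the 3, so a library far from its group moves both.

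**Figure D1:**
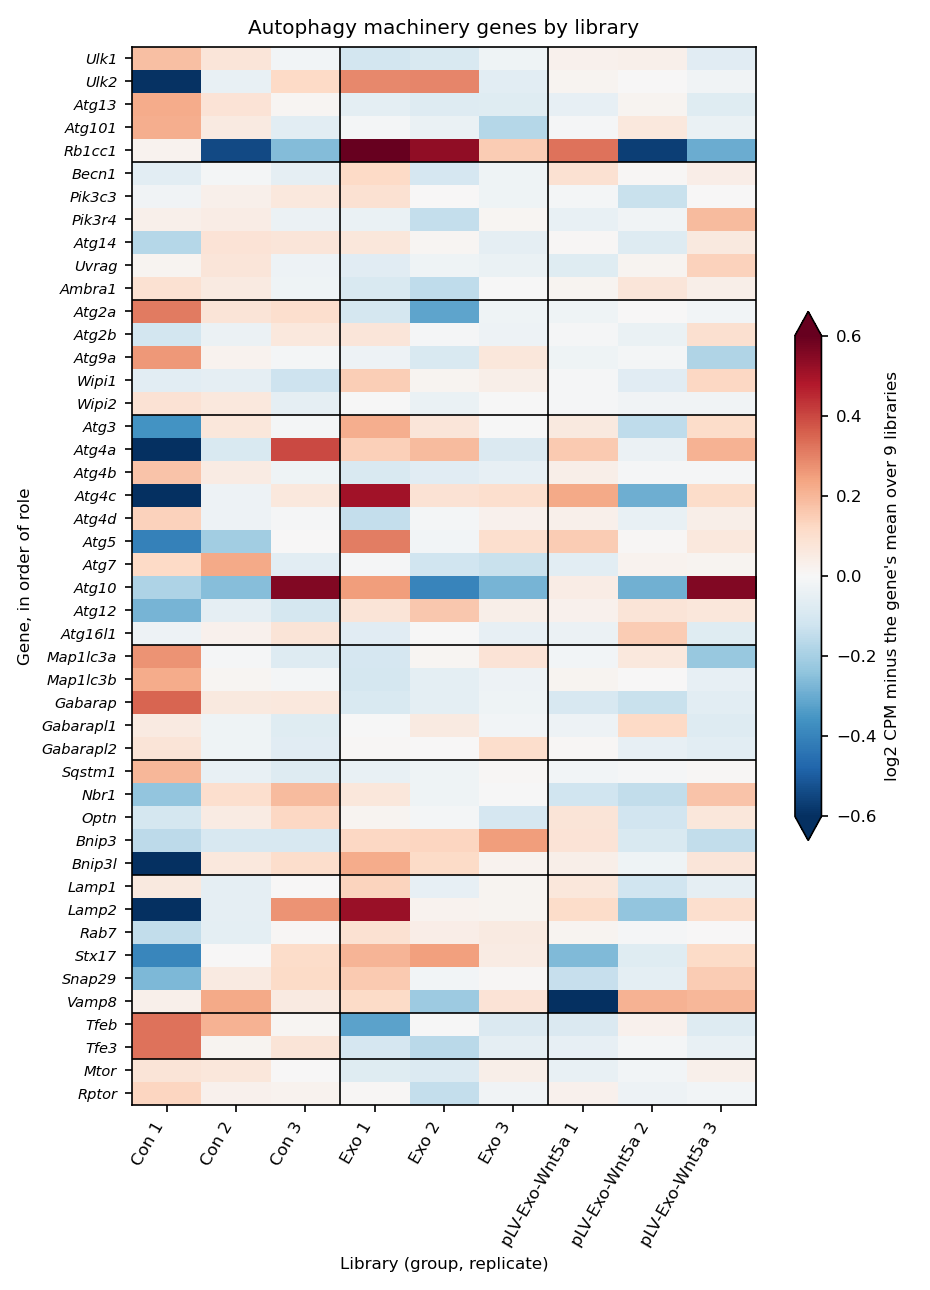
Each row is an autophagy gene, ordered by role with black lines between roles, and each column a library. The colour is the log2 CPM (prior count 2) minus the gene's mean over the 9 libraries, and colours are saturated beyond 0.6. Con replicate 1 holds the most extremes, with 17 genes at their highest and 15 at their lowest there.

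Interval widths show how large a change the data still allow. The 95% interval of the log2 fold change (log2FC) lay wholly within 1.5-fold in either direction for 37 of 46 genes between Exo and Con (background 56.7%), for 43 between pLV-Exo-Wnt5a and Exo (background 65.2%) and for 41 between pLV-Exo-Wnt5a and Con (background 60.3%). In all 3 comparisons at once it did so for 37 genes. The 9 others were Atg10, Atg4a, Atg4c, Atg5, Lamp2, Rb1cc1, Tfeb, Ulk2 and Vamp8. The median absolute log2FC of the 46 genes was 0.13, 0.06 and 0.08 in the 3 comparisons, beside 0.17, 0.11 and 0.14 over all genes tested. The members were also counted more deeply than most genes, with a median of 73.8 CPM against 18.4 CPM over the 15458 genes kept across all groups, and 39 of the 46 had a mean above that median. Their median within-group coefficient of variation was 6.49%, beside 12.2% over all genes.

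**Figure D2:**
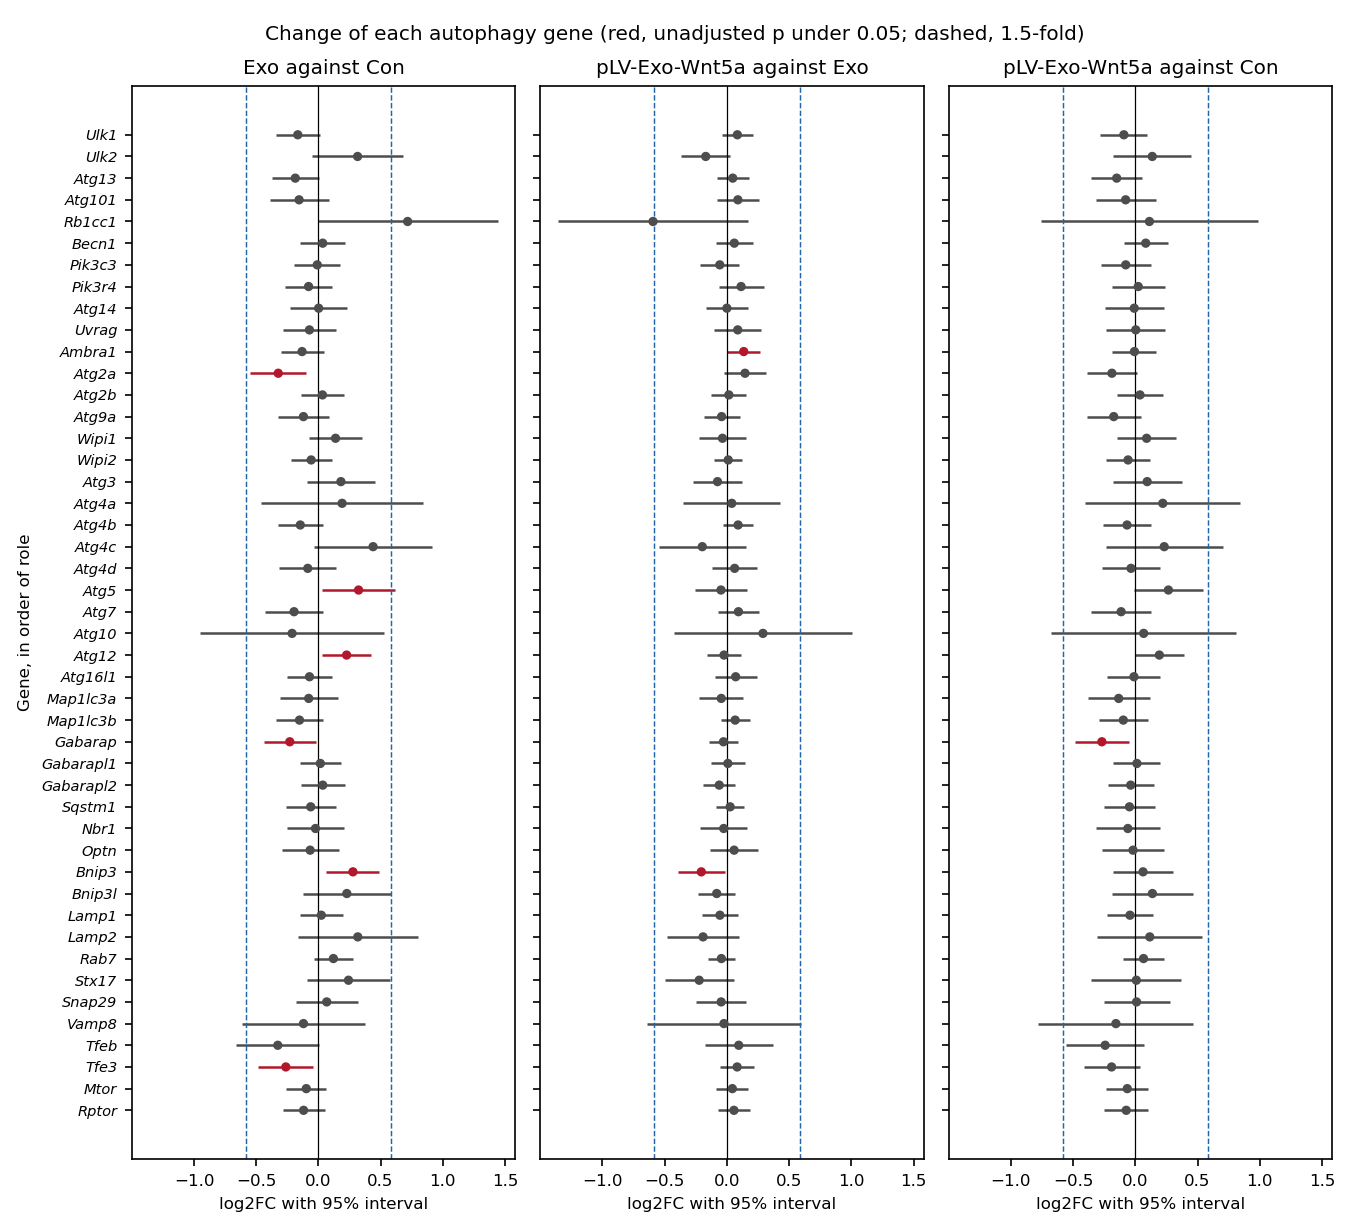
The log2FC (points) and its 95% interval (lines) are plotted for each autophagy gene in the 3 comparisons, with dashed lines at 1.5-fold. Red marks an unadjusted p under 0.05, which 6, 2 and 1 genes reached, and the widest intervals belong to Rb1cc1, Atg10, Atg4a and Vamp8.

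Among the regulators upstream of the machinery, Mtor, the kinase of mTORC1 that holds autophagy back, was measured at 222, 221 and 211 CPM in Con, at 200, 199 and 216 CPM in Exo and at 205, 209 and 215 CPM in pLV-Exo-Wnt5a. Its range over the 9 libraries was 1.12-fold, and the groups overlapped in every pairing. The log2FC was -0.10 for Exo against Con (95% interval -0.26 to 0.06), 0.04 for pLV-Exo-Wnt5a against Exo (-0.08 to 0.17) and -0.07 for pLV-Exo-Wnt5a against Con (-0.23 to 0.10). Rptor, the raptor subunit that brings substrates to mTORC1, ranged from 129 to 156 CPM, with all 3 Con libraries above the Exo ones.

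Tfe3 and Tfeb encode related transcription factors that switch on lysosomal and autophagy genes, and both had an estimate below 0 for Exo against Con, Tfe3 at an unadjusted p under 0.05 and Tfeb not. Tfe3 was at 87.4, 70.6 and 73.6 CPM in Con, at 64.9, 62.4 and 67.2 CPM in Exo and at 67.3, 69.1 and 67.7 CPM in pLV-Exo-Wnt5a. Every Con library lay above every library of the other groups, with Con replicate 1 the highest. The log2FC of Tfe3 was -0.26 between Exo and Con (-0.48 to -0.04, Q = 0.293 in edgeR), 0.08 between pLV-Exo-Wnt5a and Exo (-0.05 to 0.22, Q = 0.660) and -0.19 between pLV-Exo-Wnt5a and Con (-0.42 to 0.03, Q = 0.647). The Exo against Con estimate was under an unadjusted p of 0.05 in 9 of 11 alternative settings, the exceptions being without Exo replicate 1 or Exo replicate 2. Without Con replicate 1 the values against Con were -0.16 for Exo and -0.08 for pLV-Exo-Wnt5a.

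Tfeb was at 15.1, 13.9 and 12.1 CPM in Con, at 9.62, 12 and 11.3 CPM in Exo and at 11.3, 12.2 and 11.4 CPM in pLV-Exo-Wnt5a. The Exo libraries lay below the Con ones, by a margin of 12.1 to 12 CPM at the nearest, and the pLV-Exo-Wnt5a libraries overlapped both. Its log2FC was -0.33 between Exo and Con (-0.66 to 0.01, Q = 0.341 in edgeR), so that a fall larger than 1.5-fold was not excluded by the interval. It was 0.10 between pLV-Exo-Wnt5a and Exo (-0.18 to 0.37) and -0.24 between pLV-Exo-Wnt5a and Con (-0.56 to 0.07). For Exo against Con the unadjusted p of Tfeb was under 0.05 in 3 of 11 alternative settings. These were DESeq2, edgeR on all 9 libraries and without Con replicate 3. Between pLV-Exo-Wnt5a and Exo the estimate ranged from 0.002 to 0.16 over the alternatives.

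TFEB and TFE3 are known to bind an E-box with flanking bases, TCACGTGA, in the promoters of lysosomal genes. RefSeq promoters of the rat build GRCr8, from 250 bases before to 50 bases after each gene's start, were matched to the table's mouse symbols by name or synonym and held 40 of the 46 members (not Rb1cc1, Becn1, Atg9a, Map1lc3a, Bnip3l or Rptor). The 8 letters, which read the same on both strands, were in 3 of these 40 promoters (7.50%) and in 238 of all 27457 promoters of that length (0.867%). The inner E-box CACGTG, contained in the longer motif, was in 6 of 40 (15.0%) and in 6.65% of all promoters, the additional members being Atg14, Atg5 and Bnip3. A match describes letters in this window and says nothing of binding. The windows around the matches of Lamp1, Atg3 and Snap29 are printed because they hold the longer motif, and that of Bnip3 because this gene differed at an unadjusted p under 0.05 in both comparisons with Exo. Capitals mark the TCACGTGA motif or, in Bnip3, the inner E-box. All lie on the minus strand and are given in the direction of transcription.
Lamp1, chr16:83075069-83075155, motifs starting 66 and 39 bases before the start: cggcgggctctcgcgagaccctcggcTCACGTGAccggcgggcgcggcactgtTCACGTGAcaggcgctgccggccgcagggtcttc
Atg3, chr11:69159264-69159323, motif starting 17 bases before the start: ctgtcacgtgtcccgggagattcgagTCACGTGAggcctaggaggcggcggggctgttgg
Snap29, chr11:97113313-97113372, motif starting 151 bases before the start: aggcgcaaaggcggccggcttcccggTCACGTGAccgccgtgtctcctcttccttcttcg
Bnip3, chr1:203155030-203155087, E-box starting 99 bases before the start: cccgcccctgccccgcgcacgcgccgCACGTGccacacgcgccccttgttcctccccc

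The genes with the longer motif did not pass the test. Lamp1, an abundant glycoprotein of the lysosomal membrane, was at 908, 841 and 873 CPM in Con, at 956, 843 and 883 CPM in Exo and at 913, 802 and 842 CPM in pLV-Exo-Wnt5a, with all groups overlapping. Its log2FC was 0.02 between Exo and Con (-0.15 to 0.20), -0.06 between pLV-Exo-Wnt5a and Exo (-0.20 to 0.09) and -0.04 between pLV-Exo-Wnt5a and Con (-0.23 to 0.15). Atg3 ranged from 30.0 to 44.8 CPM and Snap29 from 36.8 to 49.5 CPM, and both had their lowest value in Con replicate 1 and their highest in Exo replicate 1.

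In the ULK1 complex, which receives the signals of mTORC1 and AMPK, 3 of 5 genes had a lower estimate in Exo than in Con and none passed the unadjusted level. Ulk1, the kinase, was at 193, 179 and 168 CPM in Con, at 158, 160 and 168 CPM in Exo and at 173, 174 and 163 CPM in pLV-Exo-Wnt5a. The Con and Exo libraries met near 168 CPM without overlapping. The log2FC of Ulk1 was -0.17 between Exo and Con (-0.34 to 0.01, Q = 0.351 in edgeR), 0.08 between pLV-Exo-Wnt5a and Exo (-0.04 to 0.21) and -0.09 between pLV-Exo-Wnt5a and Con (-0.28 to 0.10). Atg13, which bridges the complex, was also non-overlapping and lower in Exo, at 73.5 to 74.5 CPM against 78.1 to 90.3 CPM in Con.

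Rb1cc1, which encodes the scaffold FIP200, had the largest estimate of all members, and it was singled out after its values were seen. It was counted 24 to 61 times per library, at 1.01, 0.668 and 0.822 CPM in Con, at 1.58, 1.46 and 1.11 CPM in Exo and at 1.26, 0.656 and 0.799 CPM in pLV-Exo-Wnt5a. How fully rat reads of this gene were counted under its mouse identifier was not tested. The Exo libraries lay above all Con libraries, while pLV-Exo-Wnt5a overlapped both. The log2FC was 0.72 between Exo and Con (-0.01 to 1.44, Q = 0.337 in edgeR) and -0.59 between pLV-Exo-Wnt5a and Exo (-1.36 to 0.17, Q = 0.555). It reached an unadjusted p under 0.05 between Exo and Con with RLE scaling, with at least 10 counts in every library, without Con replicate 1 and without Exo replicate 3, and between pLV-Exo-Wnt5a and Exo without pLV-Exo-Wnt5a replicate 1.

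The class III PI3-kinase complexes, whose lipid product recruits later factors, were among the steadiest groups, with all 6 intervals within 1.5-fold in every comparison. Becn1, the beclin 1 subunit, was at 84.1, 87.1 and 84.7 CPM in Con, at 95.6, 81.9 and 86.3 CPM in Exo and at 93.6, 88.4 and 90.5 CPM in pLV-Exo-Wnt5a. Each pLV-Exo-Wnt5a library was above each Con library, and the Exo libraries spanned both. The log2FC of Becn1 was 0.03 between Exo and Con (-0.14 to 0.21), 0.06 between pLV-Exo-Wnt5a and Exo (-0.09 to 0.21) and 0.08 between pLV-Exo-Wnt5a and Con (-0.09 to 0.26).

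Ambra1, a cofactor that links beclin 1 to its regulators, was the member with a higher value at an unadjusted p in pLV-Exo-Wnt5a against Exo. It was at 130, 126 and 120 CPM in Con, at 114, 110 and 121 CPM in Exo and at 123, 128 and 125 CPM in pLV-Exo-Wnt5a. The pLV-Exo-Wnt5a libraries lay above the Exo ones, by 123 to 121 CPM at the nearest, and within the range of Con. The fold was 1.10 (95% interval 1.00 to 1.20, Q = 0.397 in edgeR), and the p fell under 0.05 in 2 of 11 alternative settings. Pik3c3, Pik3r4, Atg14 and Uvrag, the catalytic, regulatory and targeting subunits, each ranged over at most 1.26-fold across the 9 libraries.

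Among the genes for membrane supply, Atg2a, a lipid transfer protein that fills the growing membrane, had the smallest Q of any member. It was at 108, 92.0 and 93.6 CPM in Con, at 80.9, 69.9 and 85.4 CPM in Exo and at 85.6, 87.3 and 86.1 CPM in pLV-Exo-Wnt5a. The 3 groups did not overlap, with Con highest, Exo lowest and Exo replicate 2 the lowest library. The pLV-Exo-Wnt5a libraries lay above the Exo ones by only 85.6 to 85.4 CPM at the nearest. The log2FC was -0.32 between Exo and Con (-0.55 to -0.10, Q = 0.265 in edgeR), 0.15 between pLV-Exo-Wnt5a and Exo (-0.02 to 0.31, Q = 0.493) and -0.19 between pLV-Exo-Wnt5a and Con (-0.39 to 0.02, Q = 0.621). The first of these p-values stayed under 0.05 in 10 of 11 settings, not without Exo replicate 2, where the second value was 0.06, and without Con replicate 1 the third was -0.10. Its paralog Atg2b had an estimate of 0.03 between Exo and Con (-0.14 to 0.21).

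Atg9a encodes the lipid scramblase carried by the seed vesicles. It was at 180, 152 and 149 CPM in Con, at 147, 141 and 157 CPM in Exo and at 147, 149 and 132 CPM in pLV-Exo-Wnt5a, with Con replicate 1 the highest library. The log2FC was -0.12 between Exo and Con (-0.33 to 0.09), -0.04 between pLV-Exo-Wnt5a and Exo (-0.19 to 0.10) and -0.17 between pLV-Exo-Wnt5a and Con (-0.39 to 0.04). Leaving out Con replicate 1 gave -0.03 and -0.07 against Con. Wipi2, which reads the PI3-kinase lipid, had the narrowest range of all members, 1.10-fold over the 9 libraries, at 141 to 155 CPM.

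In the conjugation system, the genes of the ATG12-ATG5 conjugate were both higher in Exo than in Con at an unadjusted p. Atg12, the ubiquitin-like protein, was at 56.1, 65.6 and 63.3 CPM in Con, at 71.9, 76.1 and 69.7 CPM in Exo and at 69.2, 71.7 and 71.4 CPM in pLV-Exo-Wnt5a. All 3 Con libraries were below the other 6, with Con replicate 1 the lowest. The log2FC of Atg12 was 0.23 between Exo and Con (0.03 to 0.42, Q = 0.298 in edgeR), -0.02 between pLV-Exo-Wnt5a and Exo (-0.16 to 0.12) and 0.19 between pLV-Exo-Wnt5a and Con (-0.01 to 0.39, Q = 0.601). The p of Atg12 for Exo against Con stayed under 0.05 in 10 of 11 alternative settings, not without Exo replicate 2.

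Atg5, to which ATG12 is joined, was at 18.9, 21.6 and 25 CPM in Con, at 30.9, 24.7 and 26.8 CPM in Exo and at 27.8, 25.2 and 26.1 CPM in pLV-Exo-Wnt5a. Con and Exo overlapped at 25 and 24.7 CPM, and the pLV-Exo-Wnt5a libraries were all above Con. The log2FC was 0.32 between Exo and Con (0.03 to 0.61, Q = 0.303 in edgeR), -0.05 between pLV-Exo-Wnt5a and Exo (-0.26 to 0.16) and 0.27 between pLV-Exo-Wnt5a and Con (-0.01 to 0.54, Q = 0.607). For Atg5 the p for Exo against Con was under 0.05 in 7 of 11 settings, and was above it without Con replicate 1, Con replicate 2, Exo replicate 1 or Exo replicate 3.

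Atg7, the activating enzyme that starts both conjugation reactions, had the opposite sign, at 40.1, 43.2 and 35.3 CPM in Con, at 36.7, 34.0 and 33.6 CPM in Exo and at 35.4, 37.5 and 37.4 CPM in pLV-Exo-Wnt5a. All 3 groups overlapped in pairs. Its log2FC was -0.20 between Exo and Con (-0.43 to 0.04, Q = 0.383 in edgeR), 0.09 between pLV-Exo-Wnt5a and Exo (-0.07 to 0.26) and -0.11 between pLV-Exo-Wnt5a and Con (-0.35 to 0.12). Of the ATG4 proteases that process LC3 and GABARAP, Atg4a and Atg4c had the widest ranges of all members, 2.46-fold and 2.42-fold, with the lowest value of each in Con replicate 1, while Atg4b and Atg4d ranged over 1.20-fold and 1.21-fold and were highest there. Atg10, the E2-like enzyme for ATG12, was counted 45 to 93 times per library, with a within-group coefficient of variation of 30.7% and a log2FC of -0.21 between Exo and Con (-0.95 to 0.53).

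**Figure D3:**
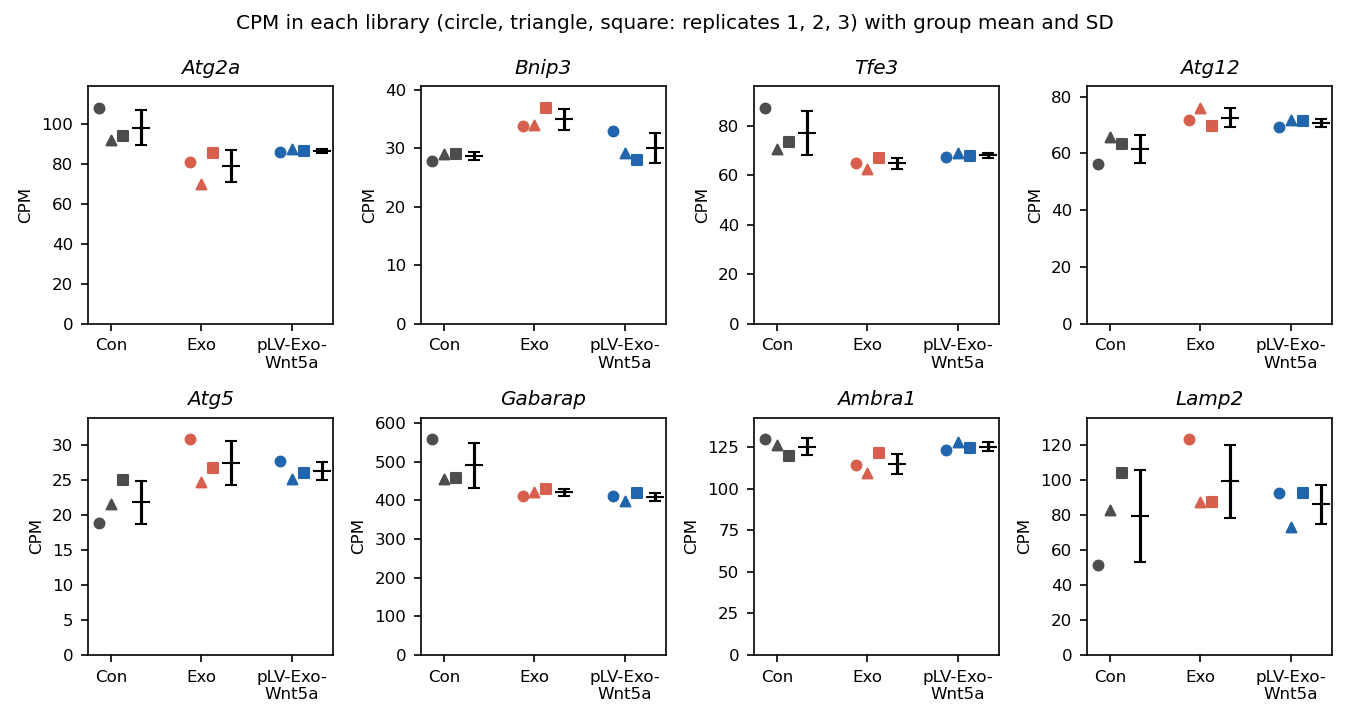
CPM of 8 autophagy genes in each library, with symbols for replicates 1, 2 and 3 and the group mean with its SD (n = 3) in black beside them; each vertical axis starts at 0. The first 7 panels are the genes with an unadjusted p under 0.05 in any comparison, and Lamp2 shows the spread between replicates of Con and Exo.

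The Atg8 family, the proteins fixed to the autophagosome membrane, had all 5 intervals within 1.5-fold in every comparison. Gabarap, which acts late in autophagosome closure and traffic, was at 558, 456 and 457 CPM in Con, at 411, 421 and 430 CPM in Exo and at 410, 399 and 419 CPM in pLV-Exo-Wnt5a. All Con libraries were above the other 6, and Con replicate 1 was the highest by a wide margin. The log2FC was -0.23 between Exo and Con (-0.44 to -0.02, Q = 0.308 in edgeR), -0.03 between pLV-Exo-Wnt5a and Exo (-0.15 to 0.09) and -0.27 between pLV-Exo-Wnt5a and Con (-0.48 to -0.05, Q = 0.529 in edgeR). Without Con replicate 1 the last value was -0.16, still at an unadjusted p under 0.05. Between Exo and Con the p stayed under 0.05 in 8 of 11 settings, not without any 1 of the Exo libraries, and without Con replicate 1 the value was -0.12.

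Map1lc3b, whose product LC3B is the usual marker of autophagosomes, was at 447, 386 and 381 CPM in Con, at 356, 368 and 375 CPM in Exo and at 387, 384 and 370 CPM in pLV-Exo-Wnt5a. Exo lay below Con without overlap, and pLV-Exo-Wnt5a overlapped both. Its log2FC was -0.15 between Exo and Con (-0.34 to 0.04), 0.07 between pLV-Exo-Wnt5a and Exo (-0.05 to 0.18) and -0.10 between pLV-Exo-Wnt5a and Con (-0.30 to 0.10). Leaving out Con replicate 1 gave -0.07 and -0.01 against Con. Map1lc3a, encoding LC3A, was at 222, 183 and 175 CPM in Con, at 172, 186 and 195 CPM in Exo and at 182, 192 and 157 CPM in pLV-Exo-Wnt5a, with overlap throughout. Its log2FC between Exo and Con was -0.08 (-0.31 to 0.15), which became 0.04 without Con replicate 1. Gabarapl1 ranged from 216 to 247 CPM, with a log2FC of 0.02 between Exo and Con (-0.15 to 0.18), and Gabarapl2 from 105 to 119 CPM.

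Among the receptors, Sqstm1, which encodes p62, the receptor that tethers ubiquitinated cargo to LC3 and is itself degraded by autophagy, was at 445, 376 and 367 CPM in Con, at 375, 381 and 390 CPM in Exo and at 383, 385 and 389 CPM in pLV-Exo-Wnt5a. Con replicate 1 was above the 8 other libraries, which lay between 367 and 390 CPM. The log2FC was -0.06 between Exo and Con (-0.26 to 0.14), 0.03 between pLV-Exo-Wnt5a and Exo (-0.09 to 0.14) and -0.05 between pLV-Exo-Wnt5a and Con (-0.25 to 0.16). Without Con replicate 1, the estimates against Con were 0.03 for Exo and 0.05 for pLV-Exo-Wnt5a, both of the opposite sign.

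Bnip3, a mitochondrial receptor that is induced in hypoxia and directs mitochondria to autophagosomes, was the member with an unadjusted p under 0.05 in both comparisons that hold the Exo libraries. It was at 27.9, 29.1 and 29.0 CPM in Con, at 33.8, 34.0 and 37.0 CPM in Exo and at 32.9, 29.2 and 28.0 CPM in pLV-Exo-Wnt5a. The Exo libraries were above the other 6, while Con and pLV-Exo-Wnt5a overlapped. The log2FC was 0.28 between Exo and Con (0.06 to 0.49, Q = 0.277 in edgeR), -0.21 between pLV-Exo-Wnt5a and Exo (-0.40 to -0.02, Q = 0.375 in edgeR) and 0.06 between pLV-Exo-Wnt5a and Con (-0.18 to 0.30, Q = 0.887). The same Exo libraries enter the first and the second value. Between Exo and Con the p stayed under 0.05 in 10 of 11 alternative settings, the exception being without Exo replicate 3 (log2FC 0.24). Between pLV-Exo-Wnt5a and Exo it did so in 7 of 11.

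Its relative Bnip3l, also called Nix, was at 50.8, 81.1 and 83.3 CPM in Con, at 90.6, 84.1 and 78.6 CPM in Exo and at 79.6, 76.1 and 81.5 CPM in pLV-Exo-Wnt5a. Con replicate 1 was far below the 8 other libraries. Its log2FC was 0.23 between Exo and Con (-0.12 to 0.58), -0.08 between pLV-Exo-Wnt5a and Exo (-0.23 to 0.07) and 0.14 between pLV-Exo-Wnt5a and Con (-0.19 to 0.46). Without Con replicate 1 the first became 0.03 and the last -0.06. The ubiquitin-binding receptors Nbr1 and Optn ranged from 127 to 171 CPM and from 26 to 30.7 CPM with overlapping groups.

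The genes for the lysosomal membrane and for fusion had 5 of 6 estimates above 0 between Exo and Con (median 0.09), 6 of 6 below 0 between pLV-Exo-Wnt5a and Exo (median -0.05) and 4 of 6 above 0 between pLV-Exo-Wnt5a and Con (median 0.01), none at an unadjusted p under 0.05. The medians over all genes were 0.002, 0.005 and 0.004. Lamp2, a membrane glycoprotein needed for fusion and chaperone-mediated autophagy, was at 51.3, 82.9 and 104 CPM in Con, at 123, 87.4 and 87.2 CPM in Exo and at 92.8, 73.1 and 92.4 CPM in pLV-Exo-Wnt5a. The lowest and the highest value came from Con replicate 1 and Exo replicate 1, and the groups overlapped. The log2FC was 0.32 between Exo and Con (-0.17 to 0.80, Q = 0.475 in edgeR), -0.19 between pLV-Exo-Wnt5a and Exo (-0.48 to 0.10) and 0.12 between pLV-Exo-Wnt5a and Con (-0.31 to 0.54). Without Con replicate 1 the value between Exo and Con was 0.08, and that between pLV-Exo-Wnt5a and Con was -0.12, and without Exo replicate 1 the first 2 values of Lamp2 were 0.14 and -0.01. Rab7, the small GTPase of late endosomes, had Exo at 403 to 417 CPM above both Con (353 to 393 CPM) and pLV-Exo-Wnt5a (390 to 397 CPM). Stx17, the syntaxin of the autophagosome, ranged from 10.1 to 15.8 CPM, and the vesicle SNARE Vamp8 was counted 56 to 110 times per library.

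Con replicate 1 held the highest or the lowest of the 9 values for 32 of the 46 genes (69.6%), and for 55.5% of all genes that passed the filter. Ulk1, Atg13, Atg2a, Atg9a, both LC3 genes, Gabarap, Sqstm1, Tfeb, Tfe3, Mtor and Rptor were among the 17 highest there. Atg3, Atg5, Atg12, Bnip3, Bnip3l, Lamp2, Rab7, Stx17 and Snap29 were among the 15 lowest. Exo replicate 1 was next, with an extreme for 17 members (37.0%, beside 31.1% of all genes), and the other 7 libraries held between 2 and 12. The part of this library in the comparisons with Con was measured by leaving it out, after which 7 members instead of 6 were at an unadjusted p under 0.05 between Exo and Con (12.1% of all genes), Rb1cc1 and Nbr1 joining and Atg5 leaving, 0 had Q under 0.05, and 43 instead of 37 intervals were within 1.5-fold.

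**Figure D4:**
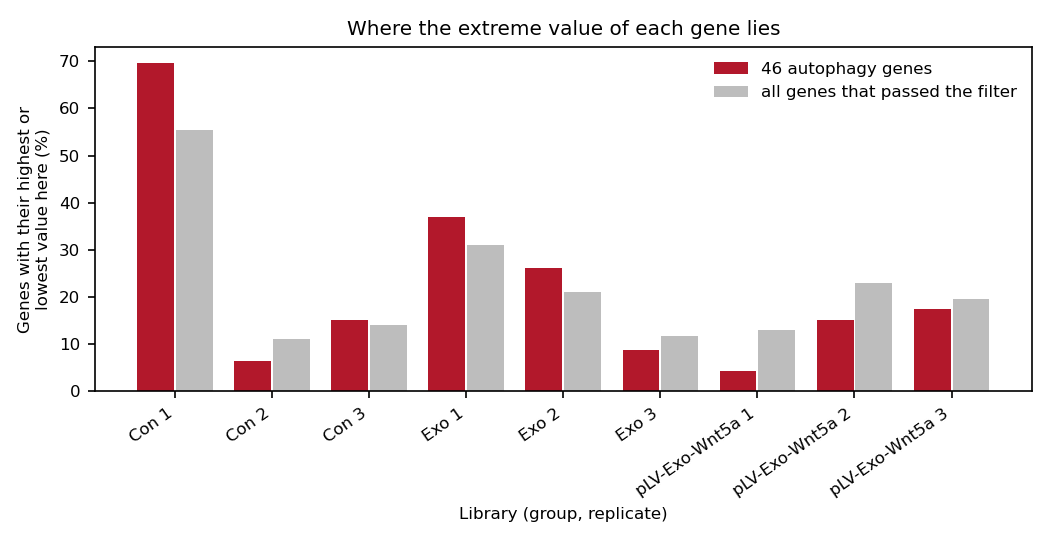
For each library, the bars give the percentage of genes whose highest or lowest normalized value among the 9 libraries lies there, for the 46 autophagy genes (red) and for all genes that passed the filter (grey). Con replicate 1 leads in both, at 69.6% and 55.5%.

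Of the pathway genes beyond the 46, none in any list had Q under 0.05 in edgeR with the filter and all 6 libraries, but some did under other settings. Between Exo and Con, the further KEGG autophagy genes had 6 at that level with no filter on low counts, 6 without Con replicate 3 and 3 in DESeq2, and the further KEGG lysosome genes had 3, 3 and 2, beside 446 of 23057, 371 of 15449 and 207 of 15070 genes in all. Between pLV-Exo-Wnt5a and Exo, the KEGG autophagy genes had 6 with no filter and 4 in DESeq2, and the KEGG lysosome genes 3 and 3, beside 397 of 23185 and 427 of 15132. The lists overlap one another. The list counts at an unadjusted p under 0.05 stand beside 8.92% higher and 6.01% lower over all genes for Exo against Con, 5.07% and 6.91% for pLV-Exo-Wnt5a against Exo, and 4.2% and 4.15% for pLV-Exo-Wnt5a against Con. In the animal autophagy pathway of KEGG, 116 further genes were tested. At an unadjusted p under 0.05, 16 of them were higher and 8 lower in Exo than in Con, 5 higher and 13 lower in pLV-Exo-Wnt5a than in Exo, and 6 higher and 5 lower in pLV-Exo-Wnt5a than in Con, with medians of 0.05, 0.01 and 0.02. These counts depended on single libraries. For Exo against Con they were 7 and 3 without Exo replicate 1 (4.66% higher and 4.02% lower over all genes), 10 and 1 without Exo replicate 2 (6.14% and 2.5%) and 32 and 13 without Con replicate 3 (14.5% and 8.87%), and the median was -0.004 without Con replicate 1, where 13 and 4 passed (6.81% and 5.25%). For pLV-Exo-Wnt5a against Exo the lower count reached 20 without Exo replicate 3 (8.61%), and for pLV-Exo-Wnt5a against Con the counts ran from 2 and 1 without pLV-Exo-Wnt5a replicate 1 (1.93% and 2.14%) to 16 and 8 without Con replicate 3 (8.45% and 5.95%). Prkaa2, a catalytic subunit of AMPK, was at 3.99 ± 1.26 CPM in Con, 7.74 ± 0.494 CPM in Exo and 5.29 ± 0.313 CPM in pLV-Exo-Wnt5a (SD, n = 3). Its log2FC was 0.95 between Exo and Con (0.43 to 1.47, Q = 0.265 in edgeR) and -0.54 between pLV-Exo-Wnt5a and Exo (-0.84 to -0.23, Q = 0.137). Sh3glb1, the membrane-curving partner of beclin 1 known as Bif-1, was at 62.3 ± 10.9, 90.7 ± 13.6 and 69.2 ± 9.29 CPM in the same order, with a log2FC of 0.53 between Exo and Con (0.23 to 0.84, Q = 0.265) and -0.38 between pLV-Exo-Wnt5a and Exo (-0.62 to -0.13, Q = 0.194).

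The list of 35 lysosomal hydrolases and membrane proteins leaned to lower values against Con. In Exo, 30 of 35 estimates were below Con with a median of -0.16, beside 0.002 over all genes, and 10 were lower and 0 higher at an unadjusted p under 0.05 (28.6% lower, background 6.01%). In pLV-Exo-Wnt5a, 26 of 35 were below Con with a median of -0.12, and 8 were lower and 0 higher (22.9% lower, background 4.15%). Without Con replicate 1 the medians were -0.09 and -0.04, with 11 and 6 genes lower at this level (background 5.25% and 5.01%). In Exo the lower count was 3 without Exo replicate 2 (background 2.5%), 6 without Exo replicate 1 (4.02%) and 15 without Con replicate 3 (8.87%). In pLV-Exo-Wnt5a, leaving out its replicate 1 gave 4 (2.14%) and leaving out its replicate 2 gave 3 (2.40%). Grn, the precursor of lysosomal granulins, was at 182 ± 17.1 CPM in Con, 146 ± 6.97 CPM in Exo and 151 ± 10.5 CPM in pLV-Exo-Wnt5a, with a log2FC of -0.33 between Exo and Con (-0.52 to -0.13, Q = 0.265 in edgeR). Cd63, a tetraspanin of lysosomes and exosomes, was at 444 ± 65.6 CPM in Con and 359 ± 11.0 CPM in Exo, and Npc2, the cholesterol carrier, at 393 ± 43.0 and 330 ± 11.0 CPM.

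Between pLV-Exo-Wnt5a and Exo, 22 of the 35 lysosomal genes had estimates above 0, 5 of them higher and 2 lower at an unadjusted p under 0.05. Ctsb, the protease cathepsin B, had the smallest Q of the listed genes, 0.0691, at 537 ± 15.0 CPM in Exo and 641 ± 17.7 CPM in pLV-Exo-Wnt5a, with a log2FC of 0.27 (0.14 to 0.39). Summed markers of microglia and macrophages, which also express lysosomal genes highly, were lowest in Exo. They were at 12.2 to 14.2 CPM in Con, 4.63 to 6.19 CPM in Exo and 10.6 to 14.0 CPM in pLV-Exo-Wnt5a, where 4 of the 9 markers were above 1 CPM. The Con and pLV-Exo-Wnt5a sums overlapped. Summed astrocyte markers, 6 of 6 above 1 CPM, were at 3912 to 4731, 3804 to 3949 and 5513 to 5810 CPM. In bulk RNA, fewer cells of a type and less RNA per cell cannot be told apart, and the part of these cells in the values above was not tested.

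Of 32 genes of mTORC1 and AMPK signalling, 8 were higher and 4 lower in Exo than in Con at an unadjusted p under 0.05, then 0 and 2 between pLV-Exo-Wnt5a and Exo, and 3 and 3 between pLV-Exo-Wnt5a and Con. Ddit4, an mTORC1 inhibitor induced by stress, was at 232 ± 19.7 CPM in Con and 193 ± 5.51 CPM in Exo (log2FC -0.27, -0.46 to -0.09, Q = 0.265 in edgeR). For 37 further autophagy factors the counts were 6 and 5, 0 and 4, and 1 and 0, and for 18 subunits of the V-ATPase, the proton pump of the lysosome, 3 and 1, 0 and 0, and 1 and 2. The 49 further genes of KEGG mitophagy gave 8 and 6, 5 and 5, and 4 and 3, and the 117 of KEGG lysosome 9 and 17, 10 and 10, and 2 and 14. Leaving out 1 library moved the counts of all these lists by over 1.5 times in at least 1 direction, along with the shares over all genes given above. For Exo against Con, without Exo replicate 1, they were 3 and 3 for mTORC1 and AMPK, 2 and 2 for the further factors, 2 and 0 for the V-ATPase, 1 and 1 for KEGG mitophagy and 4 and 9 for KEGG lysosome. Without Exo replicate 2 they were 5 and 1, 5 and 0, 3 and 0, 4 and 1, and 5 and 7 in that order, and without Con replicate 3 they were 10 and 8, 9 and 6, 2 and 2, 14 and 11, and 13 and 26. KEGG lysosome gave 2 and 19 without Con replicate 1, and without Exo replicate 3 the further factors gave 7 and 1. The low counts of the other comparisons moved likewise, the further factors for pLV-Exo-Wnt5a against Con going from 1 and 0 to 6 and 1 without Con replicate 3.

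Lists of responses known to act on single autophagy genes were read beside Bnip3 and Sqstm1, all counts being those at an unadjusted p under 0.05. Of 19 hypoxia-inducible genes, 1 was higher and 0 lower at that level in Exo than in Con, 1 and 1 in pLV-Exo-Wnt5a against Exo, and 1 and 0 in pLV-Exo-Wnt5a against Con. Of 13 targets of NRF2, the oxidative stress factor that also drives Sqstm1, 4 were higher and 0 lower at that level in Exo than in Con, 2 and 0 in pLV-Exo-Wnt5a against Exo, and 4 and 1 in pLV-Exo-Wnt5a against Con. Srxn1, the sulfiredoxin that repairs peroxiredoxins, was at 20.6 ± 1.28, 27.2 ± 3.17 and 28.2 ± 0.628 CPM, with a log2FC of 0.44 between pLV-Exo-Wnt5a and Con (0.20 to 0.69, Q = 0.352 in edgeR). Of 15 FOXO-linked and stress genes tested, 2 were higher and 0 lower at that level, 1 and 0, and 4 and 0 in the same order of comparisons. These small counts also rested on single libraries. For Exo against Con, the hypoxia-inducible genes had 0 and 2 without Con replicate 1, where 12.1% of all genes passed in either direction. The NRF2 targets had 1 and 0 without Exo replicate 2 (8.64% of all genes). The FOXO-linked genes had 0 and 0 without Con replicate 2 (10.8% of all genes). Leaving out Con replicate 2 also left 0 FOXO-linked genes for pLV-Exo-Wnt5a against Con, beside 6.13% of all genes.

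**Figure D5:**
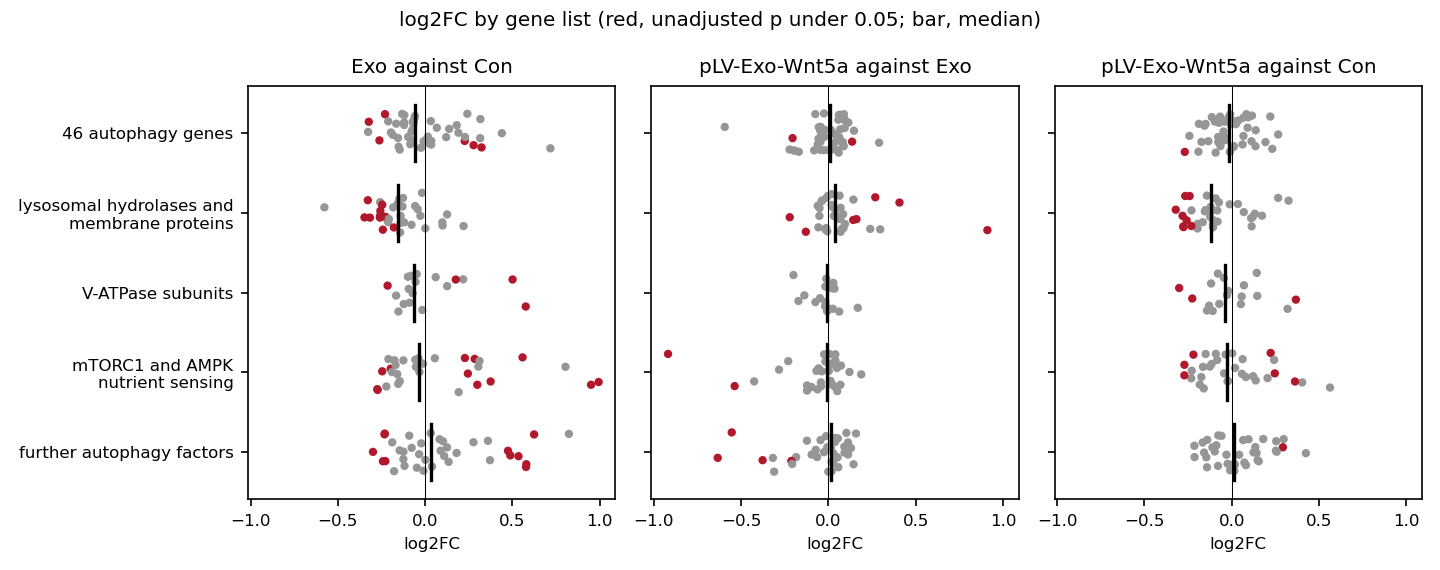
Points give the log2FC of each gene in the 46 autophagy genes and in 4 other lists for the 3 comparisons, red where the unadjusted p was under 0.05, and black bars give the medians. The lysosomal list has its median left of 0 in both comparisons with Con, at -0.16 and -0.12, and the autophagy genes have theirs at -0.06 and -0.02.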

How the data were processed

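Total RNA of 9 NSC libraries was sequenced. The authors deposited whole-number read counts per gene, not normalized. The study's methods name HISAT2 for alignment, whereas the submitters' processing notes name Bowtie2, RSEM 1.3.1 and DESeq2 1.4.5; the genome build, the annotation and the handling of reads shared by paralogs are not given in the sources used here. The methods and labels also name different RNA extraction kits.

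From the deposited counts, genes kept by filterByExpr in the 6 libraries compared were scaled by TMM and tested with edgeR 4.0.16 (R 4.3.3; quasi-likelihood, Benjamini-Hochberg over all genes). Standard errors and 95% intervals came from the F statistic. CPM used TMM over all 9 libraries. The same steps were run on simulated counts with planted changes larger than any main estimate of a member. That run does not show how smaller changes are recovered. Library totals were 32765138 to 40427647 counts. Same-group libraries differed beyond sampling noise (chi-square per degree of freedom 7.68 to 52.1), so intervals rest on replicate spread as well as depth.

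The 46 members, 10 further lists and the alternatives were chosen with earlier results of these data known. Members chosen for statistics were 16 preset ones and, per comparison, up to 5 in each direction with the smallest unadjusted p under 0.05. Rb1cc1, Atg2b and Atg10 were added to these. From each other list, up to 3 genes with the smallest p could be named. Not every comparison or Q of a named gene is printed. Alternatives were RLE scaling, no filter, at least 10 counts in every library, DESeq2 1.42.0, edgeR on all 9 libraries, the replicate number as a block, and leaving out each library. Protein sequences, transcript lengths and protein or flux measurements were not used here.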

Additional observations from a re-analysis of the deposited data

How the results depend on the processing

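The count of members with Q under 0.05 was 0 in all 39 settings of the 3 comparisons, main ones included. The smallest Q of any member was 0.0971 (pLV-Exo-Wnt5a against Exo, without Exo replicate 3). The counts over all genes moved more: between Exo and Con, 1 gene had Q under 0.05, against 446 with no filter, 207 in DESeq2 and 371 without Con replicate 3, and between pLV-Exo-Wnt5a and Exo 66, against 397 with no filter and 427 in DESeq2. Counts of members at an unadjusted p under 0.05 moved as follows. Between Exo and Con, the 6 members became 2 with the replicate block (9.40% of all genes), 9 with no filter (13.4%) and 9 with edgeR on all 9 libraries (18.2%), and ranged from 2 (without Exo replicate 2, 8.64%) to 14 (without Con replicate 3, 23.4%), with 3 without Exo replicate 1 (8.68%). Between pLV-Exo-Wnt5a and Exo, the 2 members became 1 with RLE scaling, in DESeq2, with edgeR on all 9 libraries and with the replicate block (12%, 12.4%, 7.41% and 12.4% of all genes), and 0 (without Exo replicate 2, 8.67%, or pLV-Exo-Wnt5a replicate 2, 9.39%) to 3 (without Exo replicate 3, 13.4%) with a library left out. Between pLV-Exo-Wnt5a and Con, the 1 member became 3 with edgeR on all 9 libraries (10.9%), and 0 (without pLV-Exo-Wnt5a replicate 1, 4.07%) to 2 (without Con replicate 3, 14.4%). The cause of these moves was not tested.

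With a library left out, the median log2FC of the members ranged from -0.0471 to -0.0198 between Exo and Con, from 0.00229 to 0.0268 between pLV-Exo-Wnt5a and Exo, and from -0.0502 to 0.000857 between pLV-Exo-Wnt5a and Con; with edgeR on all 9 libraries the value between pLV-Exo-Wnt5a and Exo was -0.00320. Intervals within 1.5-fold numbered 34 to 43, 40 to 43 and 37 to 43. Replicate numbers did not pair the libraries (correlations of deviations -0.201 to 0.0634), so the replicate block is given only here. It changed no call at Q under 0.05 among the members, and left Atg2a and Bnip3 of the 6 at an unadjusted p under 0.05 between Exo and Con. The counts for the lysosomal list under these settings were added after its values were seen. Rb1cc1, Atg10, Vamp8 and Atg4a each had a lowest count under 100 in a library, and whether depth or replicate spread sets their interval widths was not tested.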
